A study of Mus musculus with 12 samples.

Results

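The Hox genes of the mouse rectum were taken as the rows of the expression table whose symbol is Hox, then a cluster letter from a to d, then a paralog number. The rule gave 35 of the 17734 genes. Cluster A, on chromosome 6, held 11 of them, cluster B, on chromosome 11, held 10, cluster C, on chromosome 15, held 6 and cluster D, on chromosome 2, held 8. Hoxc11, Hoxc12, Hoxc13 and Hoxd1 were not analysed here.

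The authors sequenced rectal RNA of 12 adult male C57BL/6 mice, 3 for each of 4 groups. Normal mice drank water and received no drug. Colitis mice drank dextran sulfate sodium (DSS), a polymer that injures the bowel lining, for 7 days. Normal mice receiving BBR were gavaged with berberine (BBR), a plant alkaloid, and drank no DSS. Colitis mice receiving BBR had DSS for 7 days and berberine by gavage, for 6 days by the sample labels. The study asked how colitis and berberine alter rectal gene expression.

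Hox genes encode homeodomain transcription factors and lie in clusters in the order in which they are used along the body axis. Low paralog numbers are used toward the head and high numbers toward the tail, and adult gut, above all its mesenchyme, keeps part of this code as a record of position. The genes of paralog number 13 lie at the end of their clusters, and Hoxa13 and Hoxd13 mark the hindgut, the external genitalia and the digits. Hox proteins bind DNA together with TALE cofactors such as the Pbx and Meis proteins.

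Values are given as FPKM, fragments counted per kilobase of transcript and scaled to sequencing depth, so levels of different genes can be compared. The unit was read from the values. Tests were run with limma on log2(FPKM + 0.1) of 15315 genes, those whose mean over all 12 mice reached 0.1 FPKM, and 29 Hox genes passed this limit: 11 of cluster A, 9 of B, 1 of C and 8 of D. A fold change on this scale understates the change of a low gene. The mouse with the number 4 in its label stood apart in every group. Column totals were 482194 to 504337 in these 4 mice and 696286 to 765876 in the 8 mice numbered 1 to 3. The labels do not say what the number marks, so values of the mice numbered 4 are given beside the rest. From the steps between low values, 3 reads on a transcript of 2000 bases were worth 0.109 to 0.118 FPKM in mice 1 to 3 and between 0.0757 and 0.0862 FPKM in mice 4, and lower values carry little information. The sources used here do not say whether reads were counted by strand, so the RNA of a Hox gene cannot be told apart from that of an overlapping neighbour or an antisense RNA.

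In normal mice the Hox RNA was dominated by paralog number 13. The 35 genes summed to 548 ± 46.8 FPKM (SD, n = 3), and the 3 genes of paralog number 13 in the table made up 77.8% of that sum. Paralog numbers 9 to 13 together made up 92.2%, numbers 4 to 8 made up 5.74% and numbers 1 to 3 made up 2.04%. Hoxb13 alone made up 68.1%, and the other 12 genes of numbers 9 to 13 made up 24.1%. High levels thus lay in the tail-end part of the clusters, with most of the RNA from 1 gene.

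Hoxb13, known from the prostate and the distal large bowel, was the highest member by far. It was at 354, 412 and 348 FPKM in normal mice 1, 3 and 4, and 1.47% of the 17734 genes had a higher mean in normal mice. Its lowest normal mouse lay above the highest value of every other Hox gene in normal mice, which was 68.2 FPKM for Hoxd13 in mouse 4. Its neighbour in cluster B, Hoxb9, had a mean of 15.7 ± 2.21 FPKM, and the other 8 genes of that cluster had means of 0 to 2.17 FPKM. Cluster B was therefore high at its tail end only.

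Cluster A was graded more evenly by paralog number in normal mice. Hoxa2 had a mean of 2.27 FPKM and Hoxa3 of 6.19 FPKM. Hoxa4 broke the series at 0.920 FPKM, lower than both of its neighbours in all 3 normal mice. Hoxa5 was at 11.5 ± 3.32 FPKM, Hoxa6 at 7.19 FPKM, Hoxa7 at 6.80 FPKM and Hoxa9 at 12.2 ± 0.95 FPKM. Hoxa10 was the highest gene of the cluster at 24.4 ± 0.82 FPKM, followed by Hoxa13 at 18.2 ± 2.75 FPKM and Hoxa11 at 15.5 ± 4.39 FPKM. Hoxa10 and Hoxa13 did not overlap between the normal mice, while Hoxa13, Hoxb9 and Hoxa11, its successors in the order of means, overlapped with each other.

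Cluster D was high at its last gene, Hoxd13, which had 15.8, 25.2 and 68.2 FPKM in normal mice 1, 3 and 4. This gene ranked after Hoxb13 by its mean of 36.4 ± 27.9 FPKM, but 1 of its 3 values lay far above the others, and it overlapped with Hoxa10 and Hoxa13. Hoxd10 had a mean of 5.24 FPKM, Hoxd11 of 3.67 FPKM and Hoxd12 of 1.76 FPKM, and Hoxd3, Hoxd4, Hoxd8 and Hoxd9 stayed below 1 FPKM on average. The 6 genes of cluster C summed to 0.317 FPKM, 0.0557% of all Hox RNA. Hoxc5 and Hoxc9, with Hoxb1, stayed below the value of 3 reads in each of the 12 mice, so they were not detectable at this depth. Hoxc10 reached at most 0.09 FPKM, Hoxc6 at most 0.13 FPKM and Hoxc8 at most 0.14 FPKM, and none of the 3 was tested.

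**Figure D1:**
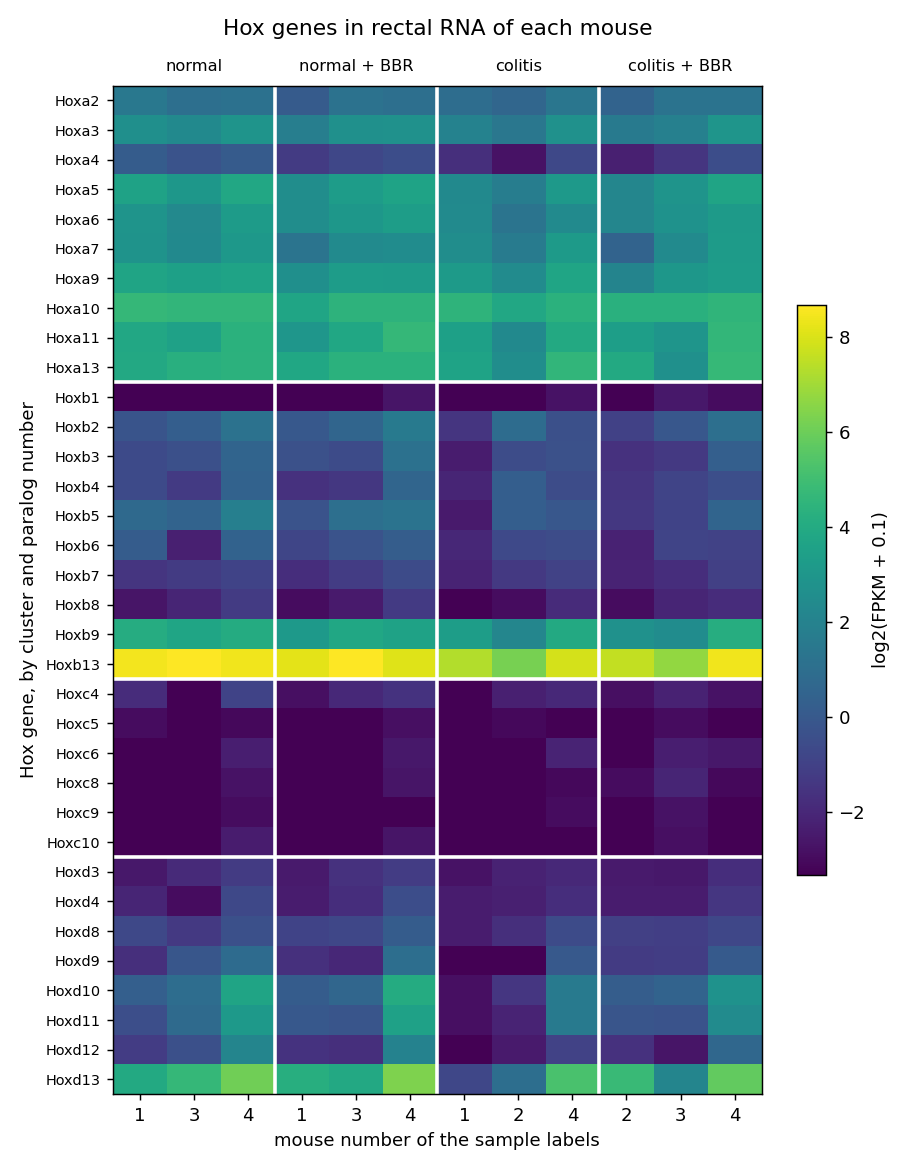
Level of 34 of the 35 Hox genes in each of the 12 mice, as log2(FPKM + 0.1), with genes in rows by cluster and paralog number and mice in columns by group and mouse number. Hoxb13 is the brightest row, cluster C is dark throughout, and the lower rows of cluster D are brightest in the mouse numbered 4 of every group.

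The promoters of 3 posterior genes are shown because these genes share a position at the tail end of their clusters and differ in level. They are the 250 bases before the start of Hoxa13, Hoxd13 and Hoxd12, from RefSeq on build GRCm38.p6, 5′ to 3′ on the strand of the gene. Capitals mark CG dinucleotides, the letters C and G in this order. The promoter table held 21 of the 35 members, and its 32851 promoters had a median of 6 CG.
Hoxa13 promoter, chr6:52260881-52261130, - strand: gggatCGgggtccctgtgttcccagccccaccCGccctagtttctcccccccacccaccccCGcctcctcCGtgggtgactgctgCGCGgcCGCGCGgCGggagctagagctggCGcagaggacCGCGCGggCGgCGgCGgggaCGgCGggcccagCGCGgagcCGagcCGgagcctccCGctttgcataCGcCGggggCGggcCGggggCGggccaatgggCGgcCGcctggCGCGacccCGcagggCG
Hoxd13 promoter, chr2:74667975-74668224, + strand: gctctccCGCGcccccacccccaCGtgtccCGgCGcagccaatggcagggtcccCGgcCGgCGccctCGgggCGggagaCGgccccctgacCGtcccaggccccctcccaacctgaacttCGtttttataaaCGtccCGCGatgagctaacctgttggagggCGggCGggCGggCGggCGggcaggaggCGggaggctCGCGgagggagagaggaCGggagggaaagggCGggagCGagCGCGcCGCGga
Hoxd12 promoter, chr2:74674763-74675012, + strand: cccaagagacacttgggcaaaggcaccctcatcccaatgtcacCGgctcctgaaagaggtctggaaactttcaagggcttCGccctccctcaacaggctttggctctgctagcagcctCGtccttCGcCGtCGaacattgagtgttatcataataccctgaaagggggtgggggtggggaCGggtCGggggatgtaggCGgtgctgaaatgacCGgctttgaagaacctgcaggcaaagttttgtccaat
The Hoxa13 promoter held 35 CG, a number reached by 2.97% of all promoters in the table, and the Hoxd13 promoter held 31, reached by 5.19%. The Hoxd12 promoter held 10, reached by 37.8%. The order of these counts is not the order of the levels in normal mice, where Hoxd13 had the highest mean of the 3 genes, Hoxa13 came after it and Hoxd12 was the lowest.

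The mice numbered 4 had higher Hox levels, most of all in cluster D. All 8 tested genes of cluster D were above both other mice of the group in every one of the 4 groups. The same held for 4 of 11 genes of cluster A and 3 of 9 of cluster B, so for 15 of the 29 tested Hox genes, against 16.7% of all tested genes. No Hox gene was lower in the mouse numbered 4 in every group. The median difference between the mouse numbered 4 and the other 2 mice was 2.57 (log2) for cluster D, 0.90 for the 29 Hox genes and 0.23 for all tested genes.

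The size of this difference varied within cluster D. No ratios are given for Hoxd3 and Hoxd4, because their mean in the other 2 mice lay below the value of 3 reads in some groups. Hoxd8 was 1.28 to 3.73 times as high in the mouse numbered 4 as in the mean of the other 2 mice of its group, over the 4 groups. For Hoxd13 the ratio was 3.33 in normal mice, 4.90 with BBR, 3.52 in colitis with BBR and 31.2 in colitis. The ratios of Hoxd10, Hoxd11 and Hoxd12 outside the colitis group were 5.86 to 13.8, 7.03 to 13.7 and 8.58 to 17.5. Genes in the middle of the tail-end block of cluster D thus differed more than Hoxd13 in 3 of the 4 groups. In the colitis group no ratio is given for Hoxd11 and Hoxd12, because their mean in the other 2 colitis mice lay below the value of 3 reads.

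Hoxa10 and Hoxb13 did not share this pattern. Hoxa10 was 0.963 to 1.22 times as high in the mouse numbered 4, and Hoxa13 was 1.17 to 2.64 times as high. The ratio of Hoxb13 was 0.910 in normal mice and 0.776 with BBR, but 2.06 in colitis and 2.31 in colitis with BBR. The number 4 mouse was the lowest of its group for Hoxb13 in both groups without DSS and the highest in both groups with DSS.

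Markers of other cells moved with the same mice. The summed level of 10 smooth muscle markers, all of them detected, was 3634 FPKM in the normal mouse numbered 4 and 2020 to 2459 FPKM in the other normal mice, and with BBR it was 5854 against 2802 to 3560 FPKM. In colitis it was 803 FPKM in the mouse numbered 4, 813 FPKM in mouse 2 and 92.7 FPKM in mouse 1, while Hoxd13 was 37.3, 1.91 and 0.48 FPKM in these mice. In colitis with BBR it was 3938 FPKM in the mouse numbered 4 and 571 to 615 FPKM in the other 2 mice, in which Hoxd13 was 27.8 and 4.33 FPKM. Summed fibroblast markers were also highest in the mouse numbered 4 in normal mice, at 594 against 350 to 387 FPKM, with BBR, at 738 against 393 to 415 FPKM, and in colitis with BBR, at 321 against 204 to 225 FPKM, but not in colitis, at 353 against 211 and 826 FPKM. Of 5 tested other homeobox genes of gut mesenchyme, 3 were above both other mice of every group, with a median difference of 1.41 (log2) over the 5. Summed epithelial markers ranged from 7455 to 13970 FPKM over the 12 mice. The sum of 8 colonocyte and goblet cell markers was lowest in the mouse numbered 4 of every group, at 12860 against 23340 to 27550 FPKM in normal mice, 18100 against 23330 to 28380 FPKM with BBR, 6993 against 15120 to 45620 FPKM in colitis and 13710 against 46390 to 56330 FPKM in colitis with BBR. The 8 granulocyte markers summed to 45.5 FPKM in the colitis mouse numbered 4 and to 480 to 494 FPKM in the other colitis mice, and to 2.84 against 197 to 218 FPKM in colitis with BBR. Without DSS they were higher in the mouse numbered 4, at 2.42 against 0.29 to 0.47 FPKM in normal mice and 2.66 against 0.36 to 0.84 FPKM with BBR. The part of these cell types in the Hox values was not tested.

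**Figure D2:**
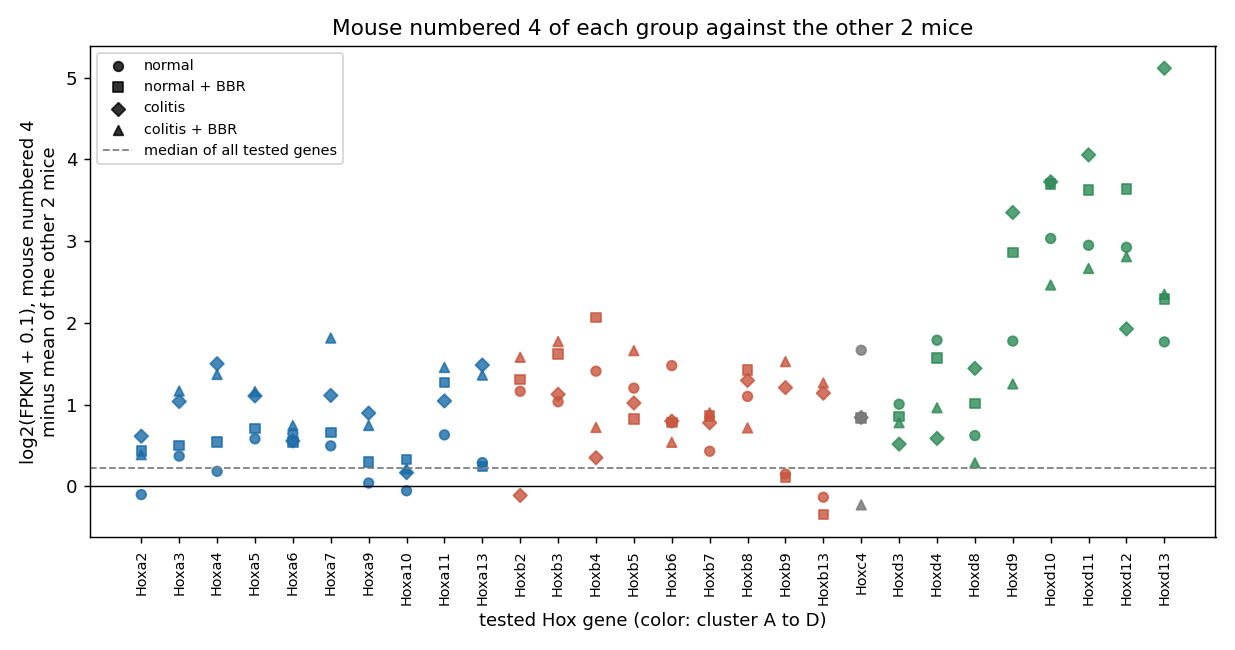
Difference in log2(FPKM + 0.1) between the mouse numbered 4 and the mean of the other 2 mice of its group, for 28 of the 29 tested Hox genes in each of the 4 groups, with the dashed line at the median of all tested genes, 0.23. Cluster D, at the right, lies above 0 in all 4 groups. Averaged over the groups, though not in each of them, it is highest from Hoxd9 to Hoxd13, while Hoxa10 stays near 0.

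Colitis against normal asked how DSS alone altered the Hox genes. All 29 tested Hox genes had a lower fitted level in colitis mice, against 73.7% of all tested genes. None passed the adjusted limit of 0.05, which 1.08% of all tested genes passed. At an unadjusted P of at most 0.05, 5 Hox genes were lower, Hoxa4, Hoxa5, Hoxb5, Hoxb13 and Hoxd13, and 15.9% of all genes were. In fits without 1 mouse the share of all genes at that limit was not counted, so Hox counts there have no background. The count of Hox genes was 2 without normal mouse 4, colitis mouse 1 or colitis mouse 2, and 11 without colitis mouse 4. The groups did not overlap for 4, Hoxa4, Hoxa10, Hoxb5 and Hoxb13, while 22.2% of all genes were lower without overlap. The median log2 fold change was −0.72 for the Hox genes and −0.32 for all tested genes, and after quantile normalization or centring on the median 24 of the 29 stayed lower. In bulk RNA, fewer cells of a type and less RNA per cell cannot be told apart.

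Hoxb13 was at 158, 74.0 and 238 FPKM in colitis mice 1, 2 and 4, all below the lowest normal mouse at 348 FPKM. Its mean of 157 ± 82.2 FPKM was 42.2% of the normal mean, and the spread was wider than in normal mice. The log2 fold change was −1.40 (SE 0.45, adjusted p = 0.128). Within mice of 1 kind the difference was −0.55 for the mice numbered 4 and −1.82 for the others.

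Hoxd13 reached 0.48 and 1.91 FPKM in colitis mice 1 and 2, below every other mouse of the series, and 37.3 FPKM in colitis mouse 4, above normal mice 1 and 3. Hoxd10 was at 0.04, 0.27 and 2.91 FPKM in the same order, against 1.15, 1.86 and 12.7 FPKM in normal mice 1, 3 and 4. Hoxd11 was at 0.04, 0.13 and 2.88 FPKM against 0.63, 1.68 and 8.70 FPKM. In both genes the colitis mice numbered 1 and 2 again had the lowest values of all 12 mice, and the mouse numbered 4 kept the groups overlapping. Hoxd12, which with Hoxd13 is known from the formation of the internal anal sphincter, was at 0, 0.08 and 0.41 FPKM against 0.34, 0.66 and 4.29 FPKM, and Hoxd9 was listed at 0 in colitis mice 1 and 2.

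These genes had the largest fitted differences of all Hox genes and also the largest errors. The log2 fold change was −3.10 for Hoxd13 (SE 1.36, adjusted p = 0.217), −2.55 for Hoxd10 (SE 1.33, adjusted p = 0.275), −2.44 for Hoxd12 (SE 1.19, adjusted p = 0.253) and −2.30 for Hoxd11 (SE 1.36, adjusted p = 0.325). Between the mice numbered 4, the difference was −0.87 for Hoxd13, −2.09 for Hoxd10, −3.11 for Hoxd12 and −1.56 for Hoxd11, so each was lower in both kinds of mice. With a term for the mice numbered 4 in the fit, 7 Hox genes passed the adjusted limit, all lower: Hoxa4, Hoxa5 and the 5 genes from Hoxd9 to Hoxd13. That fit called 9.22% of all tested genes, so calls rose outside the Hox genes too. In the 8 mice numbered 1 to 3 alone 3 Hox genes passed, Hoxd10, Hoxd11 and Hoxd13, with 5.25% of all genes. The call of cluster D thus depends on how these mice are treated in the fit.

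Cluster A stayed closer to normal at its tail end. Hoxa10, best known from the uterus, was at 22.4, 14.6 and 20.3 FPKM in colitis mice 1, 2 and 4 and at 25.3, 24.1 and 23.8 FPKM in normal mice 1, 3 and 4. Its log2 fold change was −0.37 (SE 0.23, adjusted p = 0.336), small but without overlap of the groups. Hoxa13, which patterns the hindgut and the digits, was at 12.2, 5.89 and 23.9 FPKM against 15.3, 18.7 and 20.7 FPKM, a log2 fold change of −0.59 (SE 0.52, adjusted p = 0.493), and its groups overlapped. Hoxa11 had −0.64 and Hoxa9, a regulator of blood stem cells, −0.48, with adjusted p-values of 0.472 and 0.428.

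Of the genes with paralog numbers 1 to 8, Hoxa4 and Hoxb5 had the largest fitted differences. Hoxa4 was at 0.21, 0.05 and 0.51 FPKM in colitis mice 1, 2 and 4 and at 1.03, 0.73 and 1.00 FPKM in normal mice 1, 3 and 4 (log2 fold change −1.73, SE 0.55, adjusted p = 0.123). Hoxb5, which acts in neural crest cells that form the enteric nervous system, was at 0.08, 1.12 and 0.85 FPKM against 1.64, 1.33 and 3.53 FPKM (−1.81, SE 0.75, adjusted p = 0.198). Both genes stayed at or below 3.53 FPKM and were separated between the groups. Hoxa4 in colitis mouse 2 and Hoxb5 in colitis mouse 1 lay below the value of 3 reads. Hoxa5, known from gut and lung mesenchyme, was at 5.08, 3.33 and 8.98 FPKM against 11.8, 7.99 and 14.6 FPKM and overlapped (−1.05, SE 0.45, adjusted p = 0.212). The other members with a mean of at least 1 FPKM had log2 fold changes of −0.81 for Hoxb9, −0.77 for Hoxa6, −0.74 for Hoxb2, −0.58 for Hoxa3, −0.28 for Hoxa7 and −0.23 for Hoxa2, all within overlapping groups.

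The makeup of the Hox RNA shifted with these values, as shares of the summed Hox FPKM. Paralog number 13 made up 68.2% of it in colitis mice, against 77.8% in normal mice. Cluster D made up 4.51% against 8.57%, and cluster A 30.3% against 19.3%. The shares of cluster D overlapped, at 0.32% to 11.1% in colitis and 3.77% to 16.4% in normal mice, and without the mice numbered 4 their means were 1.24% and 4.67%. The 4 genes from Hoxa9 to Hoxa13 summed to 55.0, 31.0 and 73.1 FPKM in colitis mice 1, 2 and 4, while the 4 genes from Hoxd10 to Hoxd13 summed to 0.56, 2.39 and 43.5 FPKM. In normal mice 1, 3 and 4 these sums were 68.3, 65.6 and 77.2 FPKM, and 17.9, 29.4 and 93.8 FPKM. Colitis mice 1 and 2 therefore had less of both than any normal mouse, with very little from the tail end of cluster D. Cluster A as a whole had a mean sum of 75.9 FPKM in colitis and 105.5 FPKM in normal mice, so its larger share was not a higher level.

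**Figure D3:**
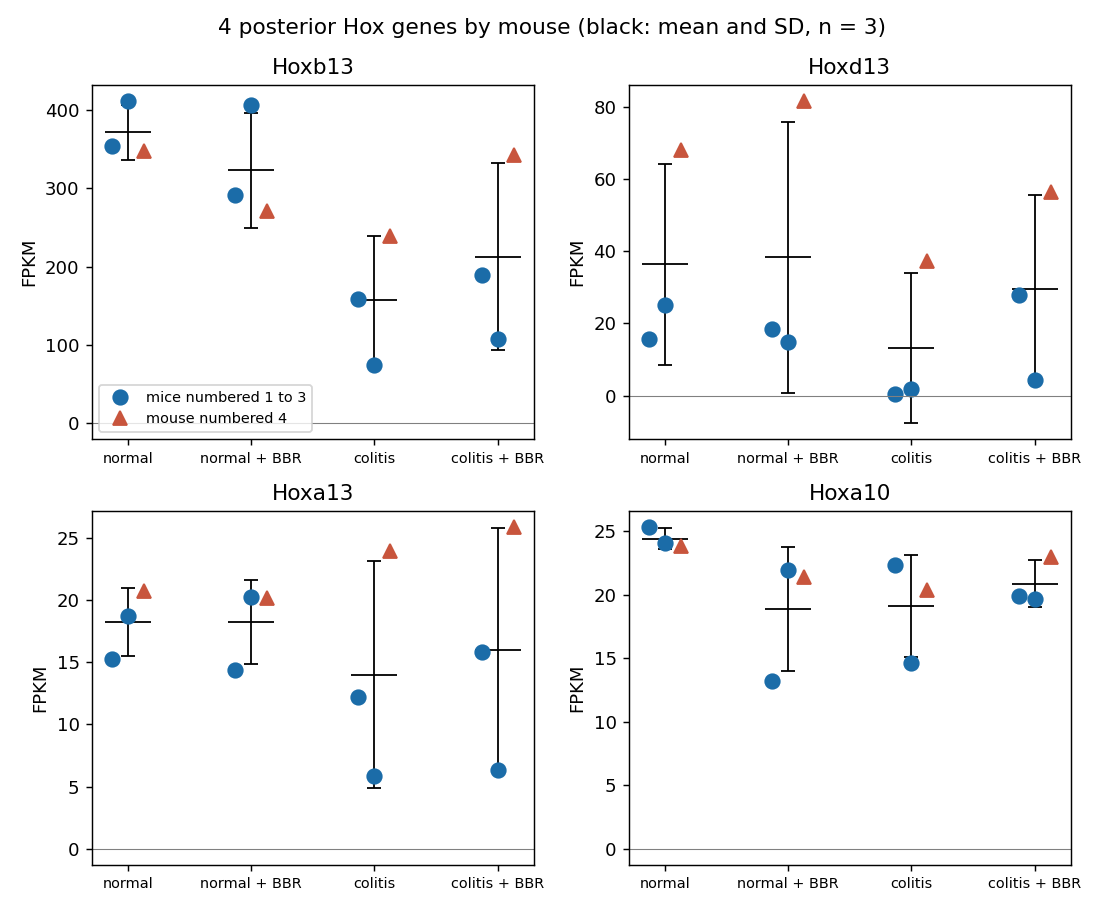
Level of Hoxb13, Hoxd13, Hoxa13 and Hoxa10 in FPKM in each mouse, with triangles for the mouse numbered 4, circles for mice numbered 1 to 3 and black lines for the mean and SD of 3 mice. The 3 colitis values of Hoxb13, 74.0 to 238 FPKM, lie below all normal values, and Hoxd13 is highest in the mouse numbered 4 of every group.

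Smooth muscle markers moved in the same comparison. All 10 had a lower fitted level in colitis, with a median log2 fold change of −2.99, and their sums were 2020 to 3634 FPKM in normal and 92.7 to 813 FPKM in colitis mice. The median was −0.08 for 10 epithelial, −0.58 for 10 fibroblast and −1.12 for 7 endothelial markers, and 3.02 for 8 granulocyte markers. The epithelial median was thus near 0, and the muscle median was the lowest of these lists. The sums of 10 markers of the squamous epithelium of the anal canal were 4.10 to 5.21 FPKM in normal and 4.45 to 10.04 FPKM in colitis mice. The part of the tissue makeup in the Hox differences was not tested.

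With BBR in both arms, colitis against normal asked the same question under the drug. Of the 29 Hox genes, 25 were lower, against 80.1% of all tested genes, and none passed the adjusted limit in limma, which 0.0392% of all genes passed. At an unadjusted P of at most 0.05, 0 Hox genes and 17.3% of all genes were lower. For other fits the share of all genes at that limit was not counted, so their Hox counts have no background. The Hox count was 4 lower in the blocked fit, 3 lower without colitis mouse 4 with BBR, and 3 higher after quantile normalization or centring. The groups did not overlap for 1 gene, Hoxb6, with 0.12 to 0.46 FPKM in colitis with BBR and 0.47 to 1.08 FPKM in normal mice with BBR (log2 fold change −1.05, adjusted p = 0.371). In all tested genes 18% were lower without overlap. The direction of the Hox genes here rested on the scaling and on single mice. Fewer of them were lower after quantile normalization, 13 of 29, after centring on the median, 14, without the normal mouse with BBR numbered 4, 17, and without colitis mouse 2 with BBR, 18. Their median log2 fold change was −0.44 as fitted, 0.013 and 0.012 under these scalings, and −0.060 and −0.15 without these mice. The other large differences were −1.26 for Hoxb5, −0.95 for Hoxb3 and −0.77 for Hoxd12, with adjusted p-values of 0.331, 0.404 and 0.691.

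Hoxb13 was at 189, 107 and 342 FPKM in colitis mice with BBR 2, 3 and 4 and at 291, 407 and 271 FPKM in normal mice with BBR 1, 3 and 4. The log2 fold change was −0.74 (SE 0.45, adjusted p = 0.341), but it was −1.28 for the mice numbered 1 to 3 and 0.34 for the mice numbered 4. The direction of Hoxb13 was thus not the same in both kinds of mice. Hoxd13 was at 27.8, 4.33 and 56.5 FPKM against 18.4, 14.9 and 81.7 FPKM, a log2 fold change of −0.57 (SE 1.36, adjusted p = 0.804).

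The average effect of DSS, taken over mice with and without BBR, used 6 mice against 6. Hoxb13 was the only Hox gene that passed the adjusted limit, which 14.3% of all tested genes passed. It fell, with a log2 fold change of −1.07 (SE 0.32, adjusted p = 0.0475). At an unadjusted P of at most 0.05, 3 Hox genes were lower, Hoxb13, Hoxa4 at −1.15 and Hoxb5 at −1.54, against 33.3% of all genes, and the latter 2 had adjusted p-values of 0.0628 and 0.0661. All 29 genes had negative fold changes, as did 78.5% of all genes, and the median was −0.50, against −0.36 for all genes. After quantile normalization 23 of the 29 were lower, with a median of −0.19, and after centring 20 were, with a median of −0.11.

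The call of Hoxb13 rests on a narrow margin. Its adjusted p was 0.088 after quantile normalization, 0.147 after centring on the median, 0.0576 without the filter on low genes, 0.055 without the trend and 0.0988 in the fit blocked by replicate number. Leaving out 1 mouse ended the call in 10 of 12 fits, and its log2 fold change stayed between −1.55 and −0.67 under all alternatives run. Without colitis mouse 4, 4 Hox genes passed, Hoxa4, Hoxb5, Hoxb13 and Hoxd13, while 27.5% of all genes did. Without the mouse numbered 4 of the colitis group with BBR 5 passed, Hoxa4, Hoxa5, Hoxb5, Hoxb9 and Hoxb13, while 38.8% of all genes did. With a term for the mice numbered 4, 9 passed, among them Hoxb13 and the 4 genes from Hoxd10 to Hoxd13, and 34.9% of all genes. In these 3 fits the calls of Hox genes thus rose with those of all genes, and their share of the 29 stayed below the share of all genes. Without any 1 of the other 10 mice the count of Hox genes was 0.

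Among the other members, the tail-end genes of cluster D had large differences in this average, with Hoxb5 between them. Hoxd13 had a log2 fold change of −1.83 (SE 0.96, adjusted p = 0.172), Hoxd12 of −1.61 (SE 0.84, adjusted p = 0.171), Hoxd10 of −1.50 (SE 0.94, adjusted p = 0.24) and Hoxd11 of −1.38 (SE 0.96, adjusted p = 0.288). Hoxa5 had −0.66, Hoxb9 −0.58, Hoxa6 −0.50, Hoxa13 −0.49, Hoxa3 −0.43, Hoxa11 −0.40 and Hoxa9 −0.37. Hoxa7, Hoxa10 and Hoxa2 had −0.15, −0.10 and −0.01, and all 3 turned positive after quantile normalization, at 0.25, 0.13 and 0.46. Hoxb2 had −0.73 (adjusted p = 0.271).

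Colitis with BBR against colitis asked whether the drug altered Hox genes in injured tissue. No Hox gene passed the adjusted limit in limma, nor did any of the other genes tested (0% of 15315), and none of the Hox genes reached an unadjusted P of at most 0.05, a limit at which 1.19% of all genes were higher. The fitted level was higher with BBR for 22 of 29 Hox genes and lower for 7, while 62% of all genes were lower, and the median log2 fold change was 0.22, where all genes had −0.09. This direction depended on single mice. Without colitis mouse 4 with BBR 17 of the 29 were lower and the median was −0.13, and without colitis mouse 1 or 2 the counts were 12 and 13 and the medians 0.13 and 0.084. The number of Hox genes higher at an unadjusted P of at most 0.05 was 5 without colitis mouse 4, 6 with a term for the mice numbered 4, and 5 both in the blocked fit and in mice 1 to 3 alone. As the share of all genes at that limit was not counted in these fits, these numbers have no background. All Hox genes overlapped between these groups.

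The 4 largest differences lay in cluster D. Hoxd13 had 27.8, 4.33 and 56.5 FPKM in colitis mice with BBR 2, 3 and 4 and 0.48, 1.91 and 37.3 FPKM in colitis mice 1, 2 and 4. Its log2 fold change was 2.44 (SE 1.36, adjusted p = 0.902), from 3.36 in the mice numbered 1 to 3 and 0.60 in the mice numbered 4. Hoxd10 had 2.07 (SE 1.33), Hoxd11 1.81 (SE 1.36) and Hoxd9 1.45 (SE 1.03). In all 4 the mice numbered 1 to 3 with BBR lay above those without, and with the mice numbered 4 the groups overlapped. Colitis mouse 1 lay below the value of 3 reads for Hoxd9, Hoxd10 and Hoxd11, as did colitis mouse 2 for Hoxd9, so the size of these differences is uncertain. Hoxb13 had 0.44 (SE 0.45) and Hoxa10 0.14 (SE 0.23). The 10 smooth muscle markers were all higher with BBR, with a median of 1.44, and their part in the Hox differences was not tested.

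**Figure D4:**
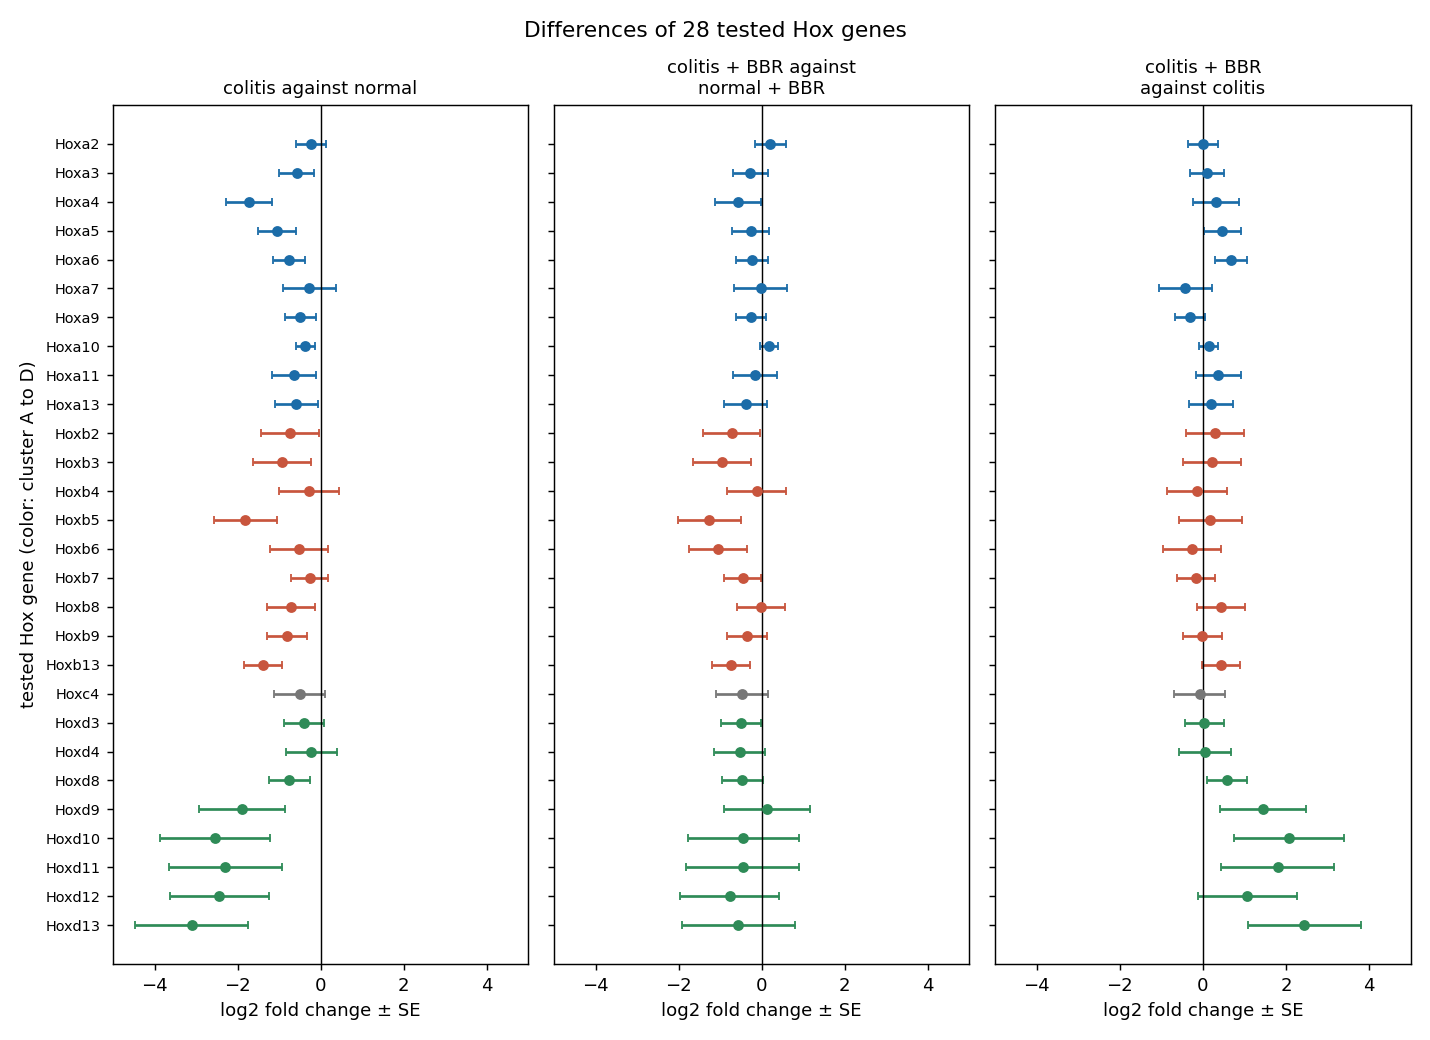
Log2 fold change of 28 of the 29 tested Hox genes with its SE, in colitis against normal, in colitis with BBR against normal with BBR, and in colitis with BBR against colitis, colored by cluster. All points lie left of 0 in the left panel, and the genes from Hoxd9 to Hoxd13 have the widest error bars in every panel.

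Normal mice with BBR against normal mice asked for an effect of the drug without injury. No gene passed the adjusted limit in limma (0% of 15315), and none of the Hox genes reached an unadjusted P of at most 0.05, at which 0.842% of all genes were lower. In the fit blocked by replicate number 2 Hox genes were lower at that limit, as in the fit of these groups alone. All genes were not counted at that limit in either fit, so this count has no background. The groups did not overlap for Hoxa4, Hoxa9 and Hoxa10, all lower with BBR, against 5.46% of all genes that were lower without overlap. Hoxa4 was at 0.32 to 0.62 FPKM with BBR and 0.73 to 1.03 FPKM without (log2 fold change −0.85, SE 0.55), Hoxa9 at 6.16 to 9.84 against 11.12 to 12.99 FPKM (−0.53, SE 0.37) and Hoxa10 at 13.2 to 22.0 against 23.8 to 25.3 FPKM (−0.41, SE 0.23). The 4 largest differences were −0.85 for Hoxa4, −0.67 for Hoxa7, −0.60 for Hoxd12 and −0.56 for Hoxd9. Hoxb13 had −0.22 (SE 0.45) and Hoxd13 −0.09 (SE 1.36), each with an adjusted p of 1.

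The interaction of BBR and DSS, which tests whether the effect of the drug differed between colitis and normal mice, gave no call in limma among all genes (0% of 15315), and an unadjusted P of at most 0.05 was reached by 0 Hox genes and, with a positive estimate, by 0.699% of all genes. The count of Hox genes was 5 in the blocked fit, 5 with a term for the mice numbered 4, 4 in mice 1 to 3 alone and 3 without colitis mouse 4, all with a positive estimate. No share of all genes at that limit was counted for these fits, so the counts have no background. The estimate was positive for 24 of 29 Hox genes and negative for 5, while 58.9% of all genes had a negative one. The median was 0.45 for the Hox genes and −0.08 for all genes. Without colitis mouse 4 with BBR 14 of the 29 were negative and the median was 0.11, and without normal mouse 1 with BBR 9 were negative and it was 0.085. The largest were 2.53 for Hoxd13 (SE 1.93), 2.11 for Hoxd10 (SE 1.88), 2.01 for Hoxd9 (SE 1.46) and 1.84 for Hoxd11 (SE 1.92). These comparisons share the colitis and the normal mice, so they do not add to each other.

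Genes that work with or on the Hox clusters were described from fixed lists. All 9 TALE cofactors were lower in colitis than in normal mice, with a median of −0.91 and no call. Among those that fell in the average effect of DSS was Pbx3 (−1.25, adjusted p = 0.0467). Of 20 Polycomb and trithorax genes, whose products keep Hox genes silent or active, 3 fell in that average and none rose: Cbx7 (−1.19), Cbx8 (−0.85) and the trithorax methyltransferase Kmt2a (−0.74). Their adjusted p-values were 0.0393, 0.0457 and 0.0465. In this average 11.4% of all tested genes fell and 2.85% rose past the limit, so the share of chromatin genes that fell was close to that of all genes.

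Retinoic acid switches on Hox genes in the embryo. Of 14 tested genes of its signalling, 2 rose in the average effect of DSS and none fell. Aldh1a3, an enzyme that makes retinoic acid, was at 0.95 to 3.37 FPKM in normal and 17.8 to 107 FPKM in colitis mice (2.73 in the average, adjusted p = 0.0262), and Rdh10, which acts in the preceding step, had 1.18 (adjusted p = 0.0425). The list as a whole did not go one way, as 9 of its 14 genes had a negative fold change and the median was −0.54. Aldh1a1, which also makes retinoic acid, was at 19.5 to 28.6 FPKM in normal and 6.49 to 14.5 FPKM in colitis mice (−0.93 in the average, adjusted p = 0.0521). Of 6 tested ParaHox and hindgut identity genes none passed in any of the 6 comparisons. Cdx2, the intestinal master regulator, was at 15.7 to 35.8 FPKM in normal and 10.3 to 36.8 FPKM in colitis mice, and the groups overlapped. Evx2, the neighbour of Hoxd13 at the end of cluster D, was at 0.05, 0.06 and 0.96 FPKM in colitis mice 1, 2 and 4 and at 0.53, 0.76 and 1.95 FPKM in normal mice 1, 3 and 4. Its values in colitis mice 1 and 2 lay below those of 3 reads, and the mouse numbered 4 was the highest of each of these groups, as for Hoxd13. Of 5 tested other homeobox genes of gut mesenchyme, Pitx1, which patterns the hindlimb, fell in the average effect of DSS (−1.81, adjusted p = 0.0478).

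The tissue label was checked against markers of other places. Epithelial, colonocyte and goblet cell markers were all detected, as were those of muscle. The summed level of the 8 markers of stomach and small intestine in the table was 21.6 to 86.1 FPKM in normal mice, with Fabp2, an intestinal fatty acid binding protein, at 13.3 to 80.4 FPKM and the small intestinal lactase gene Lct at 0 to 0.03 FPKM. The 4 markers of prostate, seminal vesicle and urothelium in the table summed to 15.1 to 17.8 FPKM in normal and 7.85 to 13.7 FPKM in colitis mice. Nearly all of this was Upk1a, a urothelial gene, at 14.4 to 17.0 FPKM in normal mice, while the seminal vesicle gene Svs5 was listed at 0 in those mice. Pbsn and Msmb, which mark the prostate, were not analysed here. The part of neighbouring organs in the Hoxb13 level was not tested.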

How the data were processed

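RNA of 12 mice, 3 in each of 4 groups, was used, with groups and mouse numbers from the sample titles. Per the labels, the authors aligned reads to mm9 with Bowtie2 2.2.5 and estimated expression with RSEM 1.2.12, after filtering with SOAPnuke by the methods. The deposited table has 1 FPKM value for each gene in each mouse, a unit taken from the size of the values. The values were not scaled further. The labels name colorectum, a TruSeq kit and BBR for 6 days, where the methods name rectum and rRNA depletion. Nothing says that mice were pooled, and P-values measure the spread between these mice only.

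Genes whose mean reached 0.1 FPKM, 15315 in all, were fitted as log2(FPKM + 0.1) with limma 3.58.1 in R 4.3.3, 1 mean per group over all 12 mice, with a trended empirical Bayes spread. Adjustment of P-values followed Benjamini and Hochberg across every tested gene, at a limit of 0.05. An exact two-sided permutation test of 3 against 3 mice has 20 arrangements and cannot go below p = 0.1, so it was not used. The fit was tested on simulated data. Depth was estimated from the steps of low values, as read counts are not part of the table. Figures were drawn in Python 3.11.15 with matplotlib 3.10.9.

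The members and lists were chosen with earlier results of these data known. Named in colitis against normal and in the average effect of DSS were the tested members with a mean of at least 1, elsewhere the 4 with the largest difference, and any past the adjusted limit. Other Hox genes given were chosen after their values were seen. Values of some single genes are not reported here, though counts, sums and medians include them. The normal groups with and without BBR share the numbers 1, 3 and 4, and same-numbered mice deviated together (r = 0.29, 0.109 and 0.657), but normal mouse 3 and mouse 1 with BBR had r = 0.456, and over all groups the mean r of mice numbered 1 to 3 was 0.205 for like and 0.193 for unlike numbers. The alternatives were other pseudocounts, filters and scalings, no trend, the compared groups alone, the replicate number as a block, a term for the mice numbered 4, mice 1 to 3 alone, and leaving out each mouse.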

Additional observations from a re-analysis of the deposited data

How the results depend on the processing

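In colitis against normal, the count of Hox genes past the adjusted limit was 0 as reported, 4 with the replicate block (Hoxd10 to Hoxd13), 7 with a term for the mice numbered 4 and 3 in mice 1 to 3 alone, where these fits called 4.79%, 9.22% and 5.25% of all genes against 1.08% as reported. It was 0 under the other alternatives run. In the average effect of DSS the count was 1 as reported, 2 with a pseudocount of 1, and 0 without the filter, after quantile normalization, after centring on the median and without the trend. There it was 6 with the replicate block (Hoxb3, Hoxb5 and Hoxd10 to Hoxd13, without Hoxb13), 9 with a term for the mice numbered 4 and 7 in mice 1 to 3 alone, with 16.1%, 34.9% and 40.4% of all genes called against 14.3%, and 0 to 5 when 1 mouse was left out. In the other 4 comparisons the count stayed at 0 in all alternatives run, the paired one included. The numbers are shared by only 2 pairs in most comparisons, so the block is not a paired design there. The cause of these changes was not tested.

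Some directions turned. After quantile normalization Hoxa2 and Hoxa7 were 0.18 and 0.032 in colitis against normal, and Hoxa10, Hoxa2 and Hoxa7 were 0.13, 0.46 and 0.25 in the average effect of DSS. After centring, these were 0.10 and 0.060, then 0.30, 0.38 and 0.24, with Hoxa9 at 0.021. With the block Hoxa2 and Hoxa7 were 0.011 and 0.27, then 0.17 and 0.34. When 1 mouse was left out, Hoxa7 ranged from −0.65 to 0.14 in colitis against normal, Hoxa2 from −0.18 to 0.11 and Hoxa7 from −0.46 to 0.24 in the average effect of DSS, Hoxd12 from −1.71 to 0.44 in colitis with BBR against normal with BBR, and Hoxd12 from −1.81 to 0.38 and Hoxd9 from −1.51 to 0.036 in normal mice with BBR against normal mice. Of 908 values of single genes recomputed, 837 kept their direction and their side of the limit. The table gives no counts, and values below those of 3 reads, as for 3 Hox genes in all 12 mice, cannot show a difference.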
